A study of Bos taurus with 8 samples.

Results

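The genes described here sense bacterial lipopolysaccharide and other bacterial surface molecules in the rumen epithelium. They are LBP, CD14, LY96, TLR4, TLR2, TLR1, TLR6, TLR5, NOD1 and MYD88. They were found by the gene name that the array design gives each probe, and 10 of 10 had a probe, each exactly 1, among 15008 probes for 14964 named genes. Rumen epithelium, the keratinised lining of the forestomach in which microbes ferment feed, was taken from rumen-fistulated Holstein bulls, and its total RNA was measured on 1-colour Agilent arrays. The WP group (n = 4 arrays) ate a high-grain diet in which wood kraft pulp (WP), mostly cellulose, took the place of 50% of the corn flakes. The control group (n = 4 arrays) ate the high-grain diet with all of its corn flakes. The trial was a cross-over of 5 bulls aged 7.4 ± 0.3 months, with 14 days on each diet and no wash-out between them, and arrays of the calves numbered 21, 23, 24 and 25 were analysed here, 1 per calf and diet. The order of the diets in each calf is not known from the sources used here, so the diet cannot be told apart from a carry-over of the earlier diet.

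Lipopolysaccharide is the outer-membrane glycolipid of Gram-negative bacteria, and high-grain feeding is known to raise its concentration in rumen fluid. In the textbook pathway LBP, a secreted protein, lifts single lipopolysaccharide molecules out of aggregates or membranes and hands them to CD14, which passes them to the complex of TLR4 and LY96 (also called MD-2). Most Toll-like receptors then signal through the adaptor MYD88 to the transcription factor NF-kappa-B, while NOD1 senses peptidoglycan fragments inside the cell.

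Because the result for each gene rests on a single 60-base probe, the probes of 2 pairs are shown here, the first because TLR1 and TLR6 are neighbouring, related genes and the second because LBP and MYD88 gave the largest differences toward the control diet. The probes for TLR1 (chr6:59688839-59688898, UMD 3.1, minus strand) and TLR6 (chr6:59706494-59706553, UMD 3.1, minus strand) lie 17596 bases apart, and capitals mark the longest run of bases that they share.
TLR1: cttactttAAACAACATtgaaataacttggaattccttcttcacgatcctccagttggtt
TLR6: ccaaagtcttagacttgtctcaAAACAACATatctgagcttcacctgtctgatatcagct
That run is 9 bases long, and every other pair among the probes for TLR1, TLR2, TLR4, TLR5, TLR6 and TLR10 shares a run of 5 to 7 bases. The name TLR1 is that of the array design: the RefSeq table used for names lists TLR1 as an older name of both TLR6 and TLR10, so the identity of this probe's transcript is uncertain.

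From the probes for LBP (chr13:67910036-67910095, UMD 3.1, plus strand) and MYD88 (chr22:11650941-11651000, UMD 3.1, plus strand) 30 bases each are shown, bases 27 to 56 and bases 30 to 59 of the probe, with the letters AATAAA of the common polyadenylation signal in capitals.
LBP: tggttggtcctcAATAAAtatttattgaat
MYD88: tcctaggtttatAATAAAgagtctctactt
Of the 10 probes these 2 hold AATAAA, against 9.51% of all probes, and 2 hold its reverse complement TTTATT (TLR4 and LBP), against 3.40% of all probes. In the LBP probe the 2 motifs do not overlap and stand 2 bases apart. The array design places the probes' first bases at base 1752 of the LBP transcript and base 2499 of the MYD88 transcript, and the exon or UTR of each probe was not analysed here.

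The other probes lie on chromosome 7 for CD14 (53447621 to 53447680, minus strand), chromosome 14 for LY96 (39385072 to 39385131, minus strand), chromosome 8 for TLR4 (108837183 to 108837242, plus strand), chromosome 17 for TLR2 (3950552 to 3950611, minus strand) and chromosome 4 for NOD1 (66312382 to 66312441, plus strand), all on UMD 3.1. The array design gives no position for the TLR5 probe.

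A level is log2 of the processed spot signal minus the 75th percentile of that array, so 0 is the brightness below which 75% of the array's probes lie, and a difference is WP minus control within a calf on this log2 scale. Levels of different probes cannot be ranked as amounts of transcript, since probes differ in how strongly they bind. Marker genes are named by probe brightness alone, and the summed level of a marker list weighs its bright probes most. The scanner software marked 9314 to 11917 probes of each array as well above background, and the 10236 so marked on at least 4 of 8 arrays were tested with limma. The WP array of calf 24 stood apart: its negative control spots had a median signal of 4.06, against 1.20 to 1.90 on the other arrays, and its E1A control spots 40.7, against 1.36 to 1.97. On that array tested probes with a mean signal under 50 lay a median of 0.84 above the same calf's control array, against 0.015 for brighter probes. Of the tissue's own markers, the basal keratin KRT5 lay at levels of 6.18 to 7.20 on WP arrays and 6.25 to 6.94 on control arrays.

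No gene of the set passed the test between the diets. Of the 10 genes, 8 were tested and all 8 of these were well above background on all 8 arrays. Their differences were below 0 for LBP, MYD88, CD14, LY96 and TLR5 and above 0 for TLR2, NOD1 and TLR4, with a median of -0.06, against a median of 0.087 and 35.6% below 0 over all tested probes. At an adjusted p under 0.05 (limma with calf as a block, Benjamini-Hochberg over all tested probes) 0 of the 8 and 0% of all tested probes were called, and the smallest adjusted p of any probe was 0.658. At an unadjusted p under 0.05, limma gave 1 of the 8, LBP, lower on WP, against 1.75% of all tested probes lower on WP. With quantile scaling limma gave 3 of 8 at that p, LBP, LY96 and TLR4, all lower on WP. Of all 10236 tested probes, 336 were then lower and 192 higher on WP. On slide row 1 alone it gave 4 of 8, with LBP, CD14 and LY96 lower and NOD1 higher on WP. Of all tested probes, 256 were then lower and 393 higher. It gave 0 of 8 on slide row 2 alone, without the calf block, and without calf 21, calf 23 or calf 24. None of the 8 was lower on WP in 4 of 4 calves, against 5.39% of all tested probes, and 1, TLR2, was higher in 4 of 4 calves, against 11.9%. None had all 4 WP arrays below all 4 control arrays, which held for 1.18% of all tested probes; in these shares a probe without a value on every array counts as not called.

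**Figure D1:**
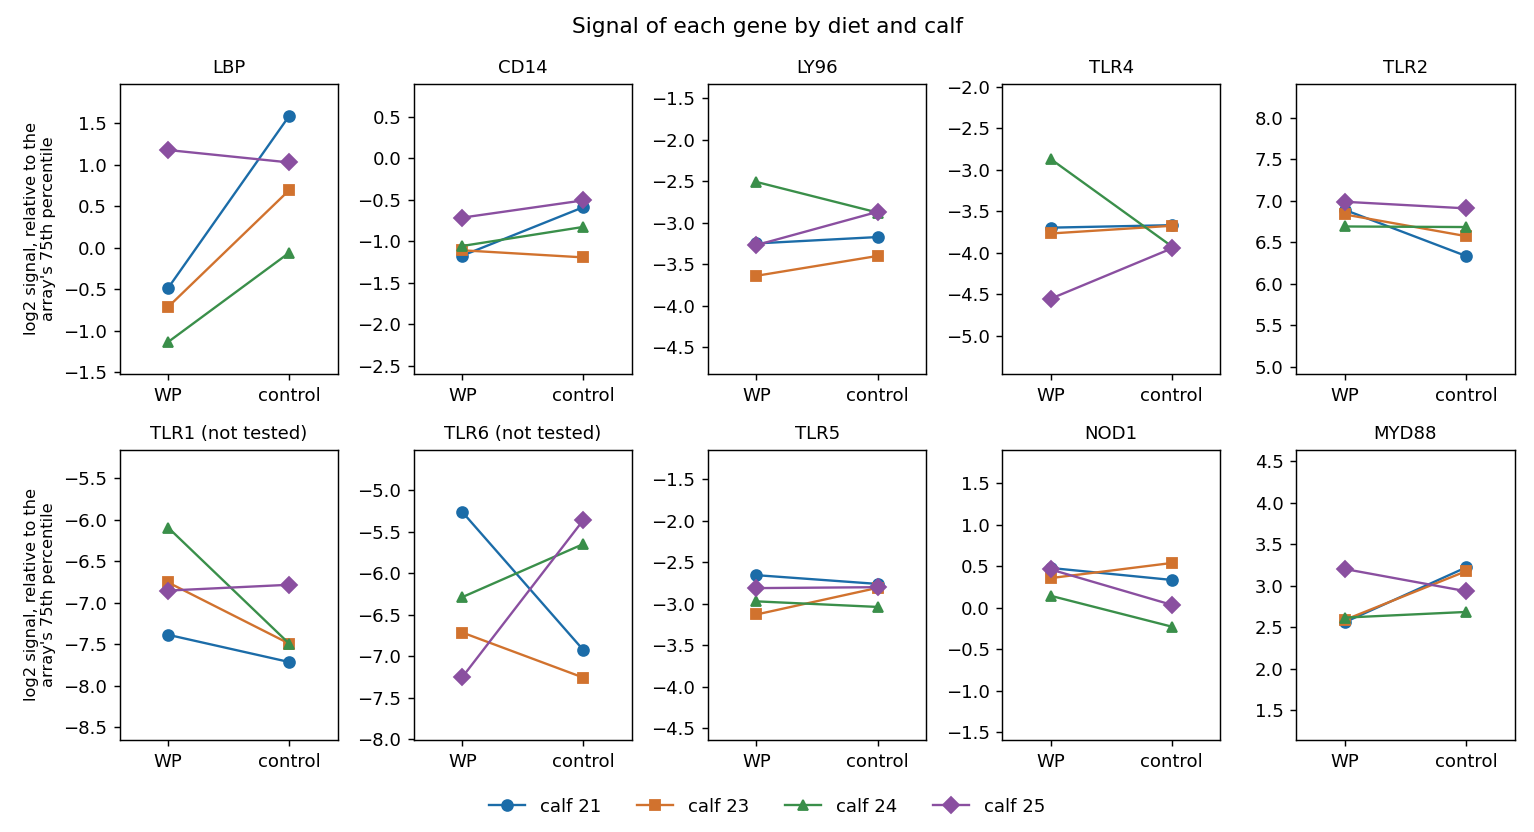
Level of each gene (vertical axes, log2 signal relative to the array's 75th percentile; all panels span the same range) on the WP and control arrays, with 1 line per calf. LBP lies lower on WP in calves 21, 23 and 24 and 0.15 higher in calf 25, and the 4 lines of TLR2 stay between 6.33 and 6.99.

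LBP, which carries lipopolysaccharide to its receptors, had the largest difference of the set. Its levels were -0.49, -0.71, -1.14 and 1.18 on the WP arrays of calves 21, 23, 24 and 25, against 1.59, 0.69, -0.060 and 1.03 on their control arrays. Calves 21, 23 and 24 were lower on WP, calf 25 was at about the same high level on both diets, and the groups overlap. The within-calf differences were -2.08, -1.41, -1.08 and 0.15, a mean of -1.10 ± 0.93 (SD, n = 4 calves), with a 95% interval from the fit of -2.04 to -0.16. The control level was 2.15 times the WP level on average, with control over WP ratios of 4.22, 2.66 and 2.11 in calves 21, 23 and 24, while in calf 25 the WP over control ratio was 1.11. The limma test gave an unadjusted p of 0.0295 and an adjusted p of 0.658 for LBP, which did not pass.

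LBP also varied between calves on the same diet: the 4 WP levels spanned 2.31, with an SD of 1.01, and the 4 control levels 1.65, with an SD of 0.69. In signal, LBP read 142, 123, 130 and 529 on the WP arrays of calves 21, 23, 24 and 25, against 970, 465, 270 and 430 on their control arrays, so the spread was not at the dim end of the scale. Without calf 25 the mean difference was -1.52, and without calf 21 it was -0.78, with adjusted p of 0.537 and 0.938 by limma. On slide row 1, which held the WP arrays of calves 21 and 23 and the control arrays of calves 24 and 25, the difference was -1.08, and on slide row 2 it was -1.12. The mean LBP level of slide row 1 minus that of slide row 2 was -0.64.

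The marker lists of other cell types were set beside LBP calf by calf, and some differed in the same order as LBP and some did not. The summed level of the macrophage and dendritic cell markers with a probe (8 of 12) differed by -1.62, -0.40, 0.94 and 1.13 in calves 21, 23, 24 and 25, and that of the fibroblast markers (7 of 7) by -1.13, 0.55, 1.10 and 1.72. The epithelium markers (12 of 12) ran the opposite way, with differences of 0.49, 0.33, -0.32 and -0.33. In every calf the epithelium sum was thus higher on its slide row 1 array. The macrophage and dendritic cell sum was higher on the slide row 2 array in every calf. Within 1 calf diet and slide row cannot be told apart, and the part of slide row in these orders was not tested. Within the epithelium list IVL was singled out after its values were seen. It encodes involucrin of the cornified envelope of differentiating keratinocytes and differed by -2.03, -1.62, -0.87 and 0.24. KRT10, DSG1, KRT14 and SFN of the same list did not share that order. KRT10 differed by 1.14, 0.37, -0.022 and 0.51, and DSG1 by 1.83, 1.28, -3.70 and -0.80. KRT14 differed by -0.51, 0.18, -0.92 and -0.73, and SFN by -0.61, -0.13, -0.45 and -0.34. At an unadjusted p under 0.05 limma gave 2 of the 11 tested epithelium genes, IVL and SFN. Both were lower on WP, as were 1.75% of all tested probes at that p. Other lists followed neither order: the hepatocyte markers (6 of 6) differed by -1.29, -0.18, 3.21 and -1.72, the endothelium markers (6 of 6) by -0.65, 0.91, 0.18 and 0.50, and the T and B cell markers (8 of 8) by -0.60, 0.019, 0.086 and -0.60. The neutrophil markers (8 of 9) differed by 0.31, -0.11, 0.061 and -0.050, and the smooth muscle markers (5 of 5) by 0.0038, 0.80, -0.068 and -0.017. The part of these cell types and of differentiating keratinocytes in the LBP difference was not tested. In bulk tissue fewer cells of a type and less RNA per cell cannot be told apart.

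The summed macrophage and dendritic cell level spanned 1.41 to 2.54 on WP arrays and 1.35 to 3.03 on control arrays, and ITGAM and MARCO of that list were not well above background on any array. The probes named for it are CSF1R, at 0.17 to 1.25 on WP arrays and -0.63 to 1.69 on control arrays, and AIF1, at -0.70 to 1.41 on WP arrays and 0.27 to 2.05 on control arrays. Hepatocytes, the main source of circulating LBP, were represented by 6 markers with a summed level of -3.25 to 0.072 on WP arrays and -3.14 to 0.098 on control arrays. APOB was not well above background on any array, and the probes named for the list are TTR, at -7.27 to -0.44 on WP arrays and -3.85 to -1.98 on control arrays, and APOA1, at -4.70 to -3.31 on WP arrays and -5.58 to -3.75 on control arrays. ALB, singled out after its values were seen, lay at -6.62, -6.79, -5.48 and -3.01 on the WP arrays of calves 21, 23, 24 and 25, against -7.77, -7.59, -7.55 and -0.52 on their control arrays, and was well above background on 1 array of each diet. Its highest levels on both diets were those of calf 25. TTR was highest in calf 24 on WP and in calf 25 on control, and APOA1 in calf 23 on WP and in calf 21 on control.

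CD14, the co-receptor that receives lipopolysaccharide from LBP, differed by less than LBP did in every calf but calf 25. Its levels were -1.17, -1.11, -1.06 and -0.72 on the WP arrays of calves 21, 23, 24 and 25, against -0.59, -1.19, -0.83 and -0.51 on their control arrays. The groups overlap, and calf 25 was the highest of both groups. The within-calf differences were -0.59, 0.086, -0.23 and -0.21, a mean of -0.23 ± 0.27 (SD, n = 4) with a 95% interval of -0.61 to 0.15 and an adjusted p of 0.668 by limma. Without calf 21 the mean CD14 difference was -0.12.

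LY96, the protein that holds lipopolysaccharide within the TLR4 complex, had levels of -3.25, -3.64, -2.51 and -3.27 on the WP arrays of calves 21, 23, 24 and 25, against -3.17, -3.40, -2.88 and -2.87 on their control arrays. The highest value belonged to the WP array of calf 24 and the lowest to the WP array of calf 23, so the WP range enclosed the control range. The mean difference was -0.09 ± 0.33 (SD, n = 4), with a 95% interval of -0.51 to 0.33 and an adjusted p of 0.870 by limma.

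TLR4, the signalling receptor for lipopolysaccharide, was dim on every array. Its levels were -3.70, -3.77, -2.87 and -4.55 on the WP arrays of calves 21, 23, 24 and 25, against -3.67, -3.68, -3.92 and -3.95 on their control arrays. The control values lay within 0.28 of each other and the WP values spanned 1.68, with the WP arrays of calves 24 and 25 at the opposite ends.

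Calves 21 and 23 hardly differed in TLR4, at -0.030 and -0.093, while calf 24 was 1.05 higher and calf 25 0.61 lower on WP. The mean was 0.08 ± 0.70 (SD, n = 4), with a 95% interval of -0.65 to 0.81 and an adjusted p of 0.934 by limma. The value of calf 24 comes from the array with the raised negative controls, where TLR4 read a signal of 39.0, against 9.97 to 15.3 on the other WP arrays and 13.7 to 25.4 on control arrays. Without calf 24 the mean TLR4 difference was -0.24, and the part of that array's raised dim signals in it was not tested.

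TLR2 recognises bacterial lipopeptides and lipoteichoic acid and pairs with TLR1 or TLR6 on the cell surface. Its probe was bright on every array, at a signal of 22963 to 29678 on WP arrays and 25326 to 28936 on control arrays, and no spot was saturated. The levels were 6.89, 6.83, 6.69 and 6.99 on the WP arrays of calves 21, 23, 24 and 25, against 6.33, 6.57, 6.68 and 6.91 on their control arrays. The groups overlap, and the control array of calf 21 was the lowest of all.

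Each calf had a higher TLR2 level on WP, by 0.56, 0.26, 0.0069 and 0.079, so 2 of the 4 differences were close to 0. Before scaling, the TLR2 signal was lower on WP in calf 21, at 23560 against 25981, and in calf 23, at 22963 against 27361. It was higher on WP in calves 24 and 25. The log2 75th percentile subtracted was 7.64 on WP and 8.33 on control in calf 21, and 7.65 and 8.17 in calf 23. In calves 21 and 23 the sign of the difference thus came with the scaling. The mean was 0.23 ± 0.24 (SD, n = 4), with a 95% interval of -0.13 to 0.59 and an adjusted p of 0.667 by limma. Without calf 21 the mean difference was 0.12.

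TLR1 and TLR6, the partners of TLR2, were at the floor of the array. TLR1 was not well above background on any array, with signals of 1.19, 1.86, 4.16 and 2.02 on the WP arrays of calves 21, 23, 24 and 25, against 1.53, 1.59, 1.56 and 1.91 on their control arrays. The highest TLR1 signal again came from the WP array of calf 24, where the negative control spots had a median of 4.06. TLR6 read 5.19, 1.92, 3.65 and 1.54 on the WP arrays of these calves, against 2.65, 1.88, 5.64 and 5.16 on their control arrays, and was well above background only on the WP array of calf 21. Both were left out of the test by the filter on dim probes, and no fold is given for either. With no filter, limma gave adjusted p of 0.544 for TLR1 and 0.961 for TLR6. These probes only bound the transcripts, since a probe that binds weakly can read as background.

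TLR5, the receptor for bacterial flagellin, had the mean difference nearest to 0. Its levels were -2.66, -3.13, -2.97 and -2.81 on the WP arrays of calves 21, 23, 24 and 25, against -2.76, -2.81, -3.04 and -2.80 on their control arrays. Calf 23 was lower on WP by 0.32 and the other calves lay within 0.11 of 0. The mean difference was -0.04 ± 0.19 (SD, n = 4), with a 95% interval of -0.37 to 0.29 and an adjusted p of 0.927 by limma.

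NOD1, the cytosolic sensor of peptidoglycan fragments, had levels of 0.48, 0.36, 0.14 and 0.46 on the WP arrays of calves 21, 23, 24 and 25, against 0.33, 0.54, -0.23 and 0.034 on their control arrays. Calves 21, 24 and 25 were higher on WP and calf 23 was lower. The mean difference was 0.19 ± 0.28 (SD, n = 4), with a 95% interval of -0.19 to 0.57 and an adjusted p of 0.692 by limma. It was 0.31 without calf 23 and 0.11 without calf 25. On slide row 1 alone the NOD1 difference was 0.52, and on slide row 2 alone it was -0.13.

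MYD88, the adaptor shared by TLR2, TLR4 and TLR5, resembled LBP in which calves were lower. Its levels were 2.56, 2.59, 2.62 and 3.20 on the WP arrays of calves 21, 23, 24 and 25, against 3.22, 3.18, 2.69 and 2.94 on their control arrays. On WP, 3 calves lay between 2.56 and 2.62 and calf 25 stood above them, at a level inside the control range. The differences were -0.66, -0.59, -0.068 and 0.27, a mean of -0.26 ± 0.44 (SD, n = 4) with a 95% interval of -0.77 to 0.24 and an adjusted p of 0.685 by limma. It was -0.13 without calf 21, -0.15 without calf 23 and -0.44 without calf 25.

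**Figure D2:**
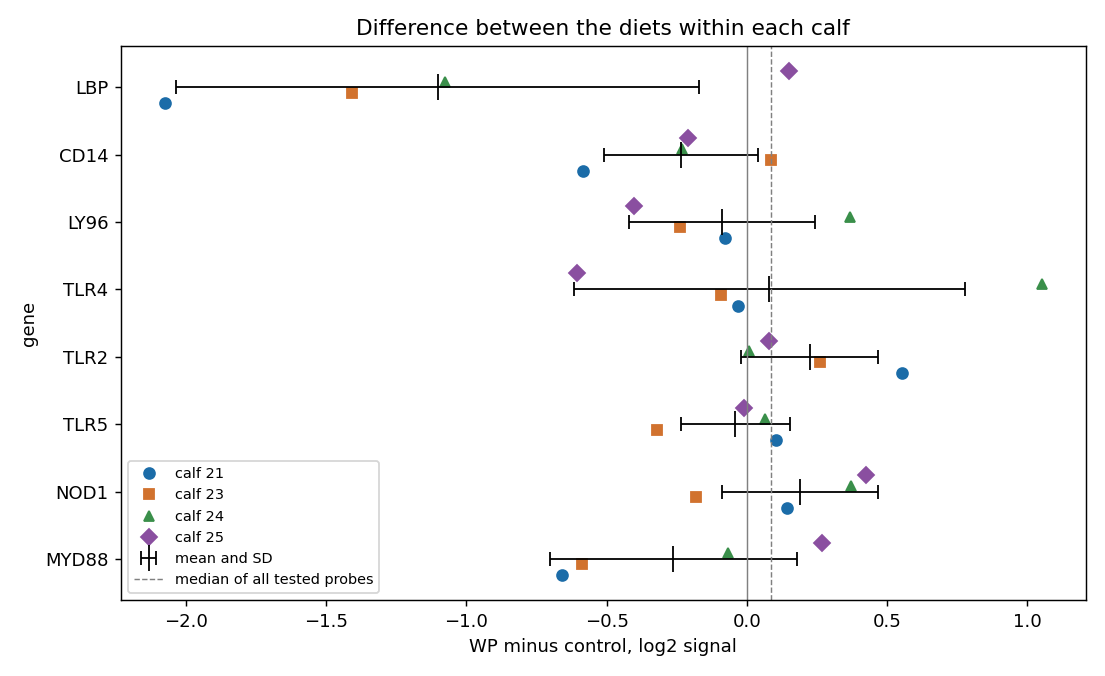
Difference between the diets (horizontal axis, WP minus control, log2 signal) for each calf (symbols) and gene (vertical axis), with the mean and SD of 4 calves as black bars, for the 8 tested genes; the dashed line is the median of all tested probes. Calf 21 is lowest for LBP, CD14 and MYD88 and highest for TLR2, and calf 24 is highest for TLR4 and LY96.

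By calf, the median difference of the 8 tested genes was -0.053, -0.21, 0.037 and 0.034 in calves 21, 23, 24 and 25, against 0.12, 0.028, 0.14 and -0.00024 for all tested probes. Below 0 were 5, 6, 3 and 4 of the 8 genes in these calves. In calf 21 LBP, MYD88 and CD14 lay at -0.59 or lower while TLR2 was 0.56 higher. In calf 25 LBP and MYD88 were both above 0, whereas CD14, LY96 and TLR4 were below it.

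The order of the 8 differences depended on how the arrays were scaled for the dim genes LY96, TLR4 and TLR5. Quantile scaling moved the median of all tested probes to -0.015, against 0.087 as reported, and relative to that median LBP lay at -1.11 with quantile scaling and -1.19 as reported. TLR4 lay 0.33 below the median of all probes with quantile scaling, at -0.33, and 0.11 above it with normexp background correction. The same contrast was -0.43 and 0.012 for TLR5, and -0.35 and 0.053 for LY96. TLR2 stayed above the median of all probes, by 0.19 and 0.066, while NOD1 lay at 0.19 and -0.0013. CD14 and MYD88 stayed below it, with -0.26 and -0.24 for CD14 and -0.20 and -0.39 for MYD88.

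**Figure D3:**
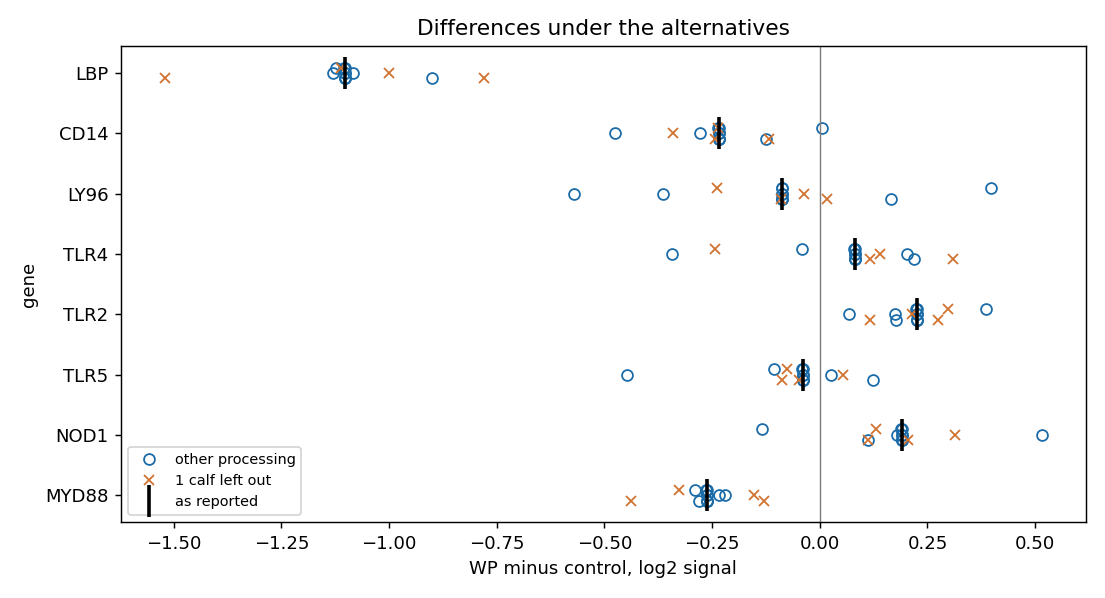
Mean WP minus control difference (horizontal axis, log2 signal) of each tested gene (vertical axis) as reported (black bar), under other processing (circles, 11 per gene) and with 1 calf left out (crosses, 4 per gene). All 15 alternatives for LBP lie between -1.52 and -0.78, while those for TLR4 run from -0.34 to 0.31. Circles for the alternatives of filter, block, prior and probe choice have the value of the black bar by design.

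The rest of the pathway was taken from 7 lists ordered by role, which hold 50 further genes. Of these, 49 had a probe and 32 were tested, of which 20 were above 0 and 12 below, with a median of 0.080 against 0.087 for all tested probes. None passed the adjusted test, and limma gave 0 at an unadjusted p under 0.05 in either direction. With quantile scaling the split was 16 above and 16 below, and with normexp background correction 25 above and 7 below.

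Among further receptors, TLR3, TLR8, TLR9 and TLR10 were not well above background on any array, and the only gene tested was NOD2, which senses muramyl dipeptide, with a difference of -0.01 ± 0.12 (SD, n = 4). Among 3 tested chaperones and accessory proteins, TREM1, a receptor on myeloid cells that amplifies Toll-like receptor signals, differed by 0.37 ± 0.66, and HSP90B1, which folds Toll-like receptors in the endoplasmic reticulum, by -0.18 ± 0.80. TREM1 differences were 1.21, 0.56, 0.012 and -0.29 in calves 21, 23, 24 and 25. Of the adaptors that serve TLR3 and TLR4 apart from MYD88, TICAM1 (TRIF) differed by -0.09 ± 0.55 and TICAM2 (TRAM) by 0.0054 ± 0.11.

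Of 10 tested kinases and ubiquitin ligases, 7 were above 0 and 3 below, with a median of 0.094. The largest differences were those of TAB3, a partner of the kinase TAK1, at 0.61 ± 0.59, and MAP3K7, which encodes TAK1, at 0.41 ± 0.52 (SD, n = 4 each). Both were largest in calf 24, at 1.45 for TAB3 and 1.11 for MAP3K7. With quantile scaling TAB3 lay at 0.027 and MAP3K7 at 0.13.

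Of 6 tested inhibitors of the pathway, 5 were above 0 and 1 was below, with a median of 0.29, or 0.16 without calf 24. IRAK3, a kinase-like protein that restrains MYD88 signalling, differed by 0.87 ± 1.15 and was well above background on 2 of 4 arrays of each diet. TOLLIP, which dampens signalling of the IRAK kinases, differed by 0.60 ± 0.73 (SD, n = 4) and was well above background on 3 WP arrays and 4 control arrays. With quantile scaling the differences were 0.12 for IRAK3 and 0.12 for TOLLIP. The gene below 0 was NFKBIA, the inhibitor that holds NF-kappa-B in the cytoplasm and itself a target of NF-kappa-B, singled out after its values were seen: it was lower on WP in 4 of 4 calves, with differences of -0.64, -0.23, -0.28 and -0.19 and an adjusted p of 0.658 by limma. Over the 7 lists, 2 of 32 tested genes, NFKBIA and RIPK2, were lower in 4 of 4 calves, against 5.39% of all tested probes, and 4, TAB2, TAB3, TBK1 and ALPI, were higher in 4 of 4 calves, against 11.9%.

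Of 5 tested transcription factors, 4 were below 0 and 1 above, with a median of -0.06. IRF7 and IRF3, which switch on interferon genes, differed by -0.09 ± 0.29 and -0.06 ± 0.29 (SD, n = 4 each). Of 5 tested genes for lipopolysaccharide clearance and intracellular sensing, 4 were above 0 and 1 below. ALPL, a phosphatase that can remove phosphates from lipopolysaccharide, differed by -0.61 ± 1.87, with -1.88, -2.54, 1.16 and 0.81 in calves 21, 23, 24 and 25. Its level was thus higher on the slide row 2 array in every calf. CASP4, a caspase that binds lipopolysaccharide in the cytosol, differed by 0.54 ± 0.82 (SD, n = 4), with -0.59, 0.94, 0.49 and 1.31 in these calves.

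**Figure D4:**
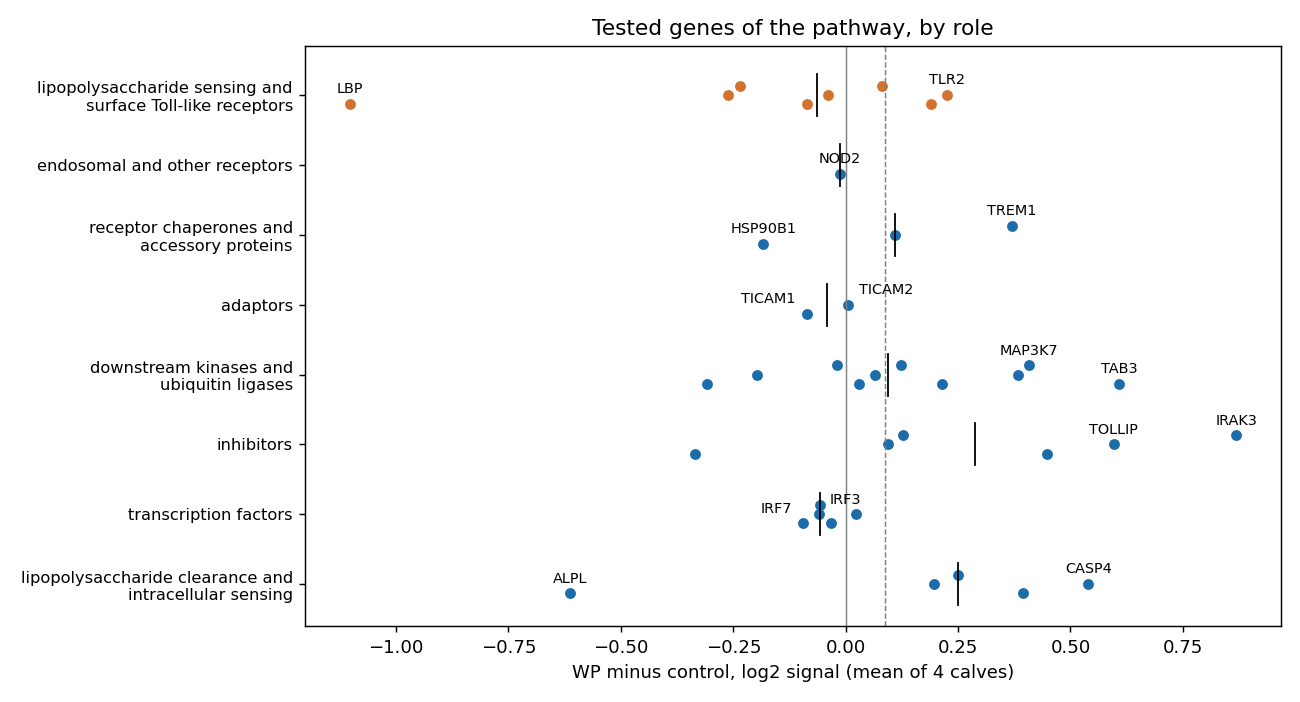
Mean WP minus control difference (horizontal axis, log2 signal, n = 4 calves) of each tested gene, by role (vertical axis); orange points are the 8 tested genes of the set, black bars the median of each role, the solid line 0 and the dashed line the median of all tested probes. LBP at -1.10 and IRAK3 at 0.87 lie farthest out, and neither passed the test.

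Markers of other cell types of the rumen wall varied in whether they were detected. In the neutrophil list S100A12 lay at 8.44 to 8.73 on WP arrays and 8.38 to 8.83 on control arrays, while CSF3R lay at -4.72 to -3.45 on WP arrays and -4.76 to -4.56 on control arrays, and ELANE and ITGAM were not well above background on any array, so of this list's defining genes few were detected. Among T and B cell genes CD2 lay at -3.48 to -3.02 on WP arrays and -3.82 to -3.05 on control arrays. Among fibroblast genes COL3A1 lay at 2.89 to 4.35 on WP arrays and 1.72 to 4.33 on control arrays, and COL1A2 at 2.20 to 3.95 on WP arrays and 1.17 to 3.68 on control arrays.

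Endothelium was represented by VWF, at -0.40 to 0.70 on WP arrays and -0.073 to 0.52 on control arrays, and KDR, at -0.80 to -0.17 on WP arrays and -1.80 to -0.073 on control arrays. Smooth muscle was represented by ACTA2, at 2.77 to 3.28 on WP arrays and 2.48 to 3.23 on control arrays, and TAGLN, at -2.51 to -1.47 on WP arrays and -2.76 to -1.87 on control arrays. For each of the neutrophil, T and B cell, fibroblast, endothelium and smooth muscle genes whose levels are given, the ranges of the diets overlap. Over whole lists, 6 of 7 tested fibroblast genes, 5 of 5 endothelium genes and 3 of 3 smooth muscle genes were above 0. Their medians were 0.66, 0.40 and 0.46, against 0.087 over all tested probes, of which 35.6% were below 0. None of these list genes passed the adjusted test. At an unadjusted p under 0.05 limma gave POSTN, at 0.75, and PDGFRA, at 0.90, among fibroblast genes. It also gave TIE1, at 0.99, among endothelium genes and TAGLN, at 0.46, among smooth muscle genes. Of all 10236 tested probes, 536 were higher and 179 lower on WP at that p. In POSTN, and in TAB3 of the kinase list, all 4 WP arrays lay above all 4 control arrays, and the share of all tested probes for this was not computed. In SFN of the epithelium list all 4 WP arrays lay below all 4 control arrays, which held for 1.18% of all tested probes. The part of these cell types in the results of the pathway genes was not tested.

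LBP had the widest range over the 8 arrays among the genes of the set, and the named genes whose levels followed it most closely were BICDL2, RAB27B and UBE2K. Their Pearson correlations with LBP over 8 arrays were 0.964, 0.958 and 0.951, each with a Spearman correlation of 0.952, given as a description since the 8 arrays come from 4 calves and share a slide and a scaling. RAB27B encodes a small GTPase of vesicle secretion, and UBE2K a ubiquitin-conjugating enzyme. The mean difference was -0.19 ± 0.30 for BICDL2, -0.42 ± 0.35 for RAB27B and -0.20 ± 0.12 for UBE2K (SD, n = 4 each), and limma gave adjusted p of 0.708, 0.658 and 0.662.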

How the data were processed

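The scanner files deposited for the 8 arrays give the intensity of each spot. Their processed signal had been background-subtracted by Agilent Feature Extraction, version 11.0.1.1 according to the file headers and version 9.5 according to the submitters' processing notes. Per the labels, Cy3 was incorporated during linear amplification of 500 ng total RNA. Per the file headers, all 8 arrays lay on 1 slide of design 072598 and were scanned once. The authors' table of log2 values was compared with the scanner files: each column equalled the log2 processed signal less an array constant (slopes of 0.99998 to 1.00, column medians of -3.08 to -2.27), and it served as an alternative.

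Here 536 control spots and outlier-marked spots were left out, spots of 1 probe were averaged, and each array's 75th percentile was subtracted from its log2 processed signals. Probes marked as well above background by 4 or more of the 8 arrays were tested two-sided with lmFit and eBayes of limma 3.58.1 (R 4.3.3), blocking on calf, with Benjamini-Hochberg adjustment over all tested probes at a threshold of 0.05. Intervals are 95% intervals of the fit. The pairing comes from the calf numbers in the labels and the stated cross-over: the WP and control arrays of 1 calf, each taken as deviations from its diet's mean, correlated at 0.0090, 0.20, 0.060 and 0.048 in calves 21, 23, 24 and 25. No count gives a depth here, so the number of arrays limits the precision. The limma fit, and not the steps before it, was tested on simulated arrays with known changes and independent noise. Those arrays held no slide row effect and no array with raised background.

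The genes, lists and markers were chosen with earlier results of these data known. Named are all genes of the set, the 2 of largest absolute difference per pathway list, the 2 brightest per marker list (2 of these genes are not reported here) and the 3 most like LBP over the arrays. The split at a signal of 50 was chosen after seeing the data. Names come from the RefSeq table of ARS-UCD2.0, for 11194 probes by accession and 3085 by symbol, and the design's own name stands for the other 729; LY96 was matched by symbol. UNC93B1 had no probe under that name. Alternatives covered background correction, scaling, the authors' table, the filter, the block, the slide row, the prior, the probe choice and each calf left out.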

Additional observations from a re-analysis of the deposited data

Results flagged for a closer look

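In 30 groups of 4 arrays, 2 single arrays stood apart by Dixon's criterion, which chance meets in about 1 in 20 groups. The MYD88 level on the WP array of calf 25 was 3.20, and its gap to the next WP array was 0.914 of the group's range. The TLR5 level on the control array of calf 24 was -3.04, with a gap of 0.830 of that group's range. The E1A control spots, which no comparison uses, had a median signal of 40.7 on the WP array of calf 24, against 1.36 to 1.97 on the other 7 arrays.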

How the results depend on the processing

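None of the 8 tested genes passed the adjusted test under the 15 alternatives run for each, nor did TLR1 or TLR6 with no filter on dim probes, the 1 alternative that tests them, nor did any probe under the 14 run for all probes, and adjusted p for the 8 tested genes ran from 0.346 to 0.9996. LBP, TLR2 and MYD88 kept their sign throughout, at -1.52 to -0.78, 0.067 to 0.38 and -0.44 to -0.13. In this balanced design the alternatives of filter, block, prior and probe choice cannot change a difference, only its p. The authors' table, which differs by an array constant, gave -1.10 for LBP, the value as reported. The signs were thus tried by normexp, quantile scaling, each slide row alone and each calf left out. The median of the 8 genes, -0.06 as reported, was 0.12 with normexp and -0.31 with quantile scaling, and with 1 calf left out -0.24 (without calf 24) to 0.0089. Changes of sign were these, and their cause was not tested. With quantile scaling TLR4 was -0.34. With normexp TLR5 was 0.12 and LY96 0.17. On slide row 1 alone TLR5 was 0.027. On slide row 2 alone TLR4 was -0.041, CD14 0.0055, LY96 0.40 and NOD1 -0.13. With 1 calf left out TLR4 ran from -0.24 to 0.31, TLR5 from -0.088 to 0.054 and LY96 from -0.24 to 0.018, with the change of sign without calf 24, calf 23 and calf 25 in that order. Without the replicate block of calf pairing the LBP difference was -1.10 with an adjusted p of 0.631 and an unadjusted p of 0.0692 by limma, and 0 probes passed. Taking the mean over all probes of a gene changes nothing here, since each gene has 1. Over all tested probes an unadjusted p under 0.05 was reached by 536 higher and 179 lower as reported, 1134 and 293 with normexp, and 192 and 336 with quantile scaling. Dim signal limits TLR4, TLR5 and LY96 most, all under a mean signal of 50, and keeps TLR1 and TLR6 out of the test as reported.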
